A study of Mus musculus with 12 samples.

Results

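The lymphocyte genes described here are 35 T cell, B cell and shared lymphoid genes among the 16411 genes of the deposited count table. They were taken by symbol from a list of 19 T cell genes, 9 B cell genes and 7 genes that lymphocytes share with each other or with other leukocytes, and all 35 were in the table. The samples are 6 tumors and 6 pieces of benign tissue from the mammary glands of female mice that carry the MMTV-Neu-NDL-YD5 transgene on an FVB background, in which the MMTV promoter drives an activated HER2 (Neu) in mammary epithelium. All 12 samples carry the transgene and none was treated. Benign tissue was gland in which no tumor could be seen, from mice that bore tumors elsewhere. It was taken as far as possible from those tumors, so its site in the body could vary. For RNA it came from other mice than the tumors studied, so it is neither transgene-free nor matched to a tumor by mouse. The labels give no ages.

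T cells recognize peptides through a receptor that signals by the CD3 chains and the zeta chain, with CD4 or CD8 as co-receptor and the kinases LCK and ZAP70 and the adaptor LAT behind it. B cells recognize antigen through surface immunoglobulin, which signals by CD79A and CD79B. A mammary fat pad of the mouse can hold a lymph node in which both kinds of cell are packed, and scattered lymphocytes also lie in the gland and in tumors. The comparisons ask whether RNA of lymphocyte genes differed between tumors and benign tissue, and how far the answer rests on benign sample 1.

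Promoter windows of GRCm38.p6 from RefSeq, 250 bases before to 50 bases after a start, were matched by symbol for 24 of the 35 genes (37 windows). The windows of Cd3e (a CD3 chain), Cd79a (the immunoglobulin-alpha chain of the B cell receptor) and Ptprc (CD45, the phosphatase of all leukocytes) are shown because they stand for the T cell, B cell and shared genes, whose levels were all highest in the same sample. Each is written 5′ to 3′ on the strand of its gene, and capitals mark AGGAAGT, a sequence that ETS family factors are known to bind, or its reverse complement.
Cd3e, chr9:45009562-45009861, minus strand: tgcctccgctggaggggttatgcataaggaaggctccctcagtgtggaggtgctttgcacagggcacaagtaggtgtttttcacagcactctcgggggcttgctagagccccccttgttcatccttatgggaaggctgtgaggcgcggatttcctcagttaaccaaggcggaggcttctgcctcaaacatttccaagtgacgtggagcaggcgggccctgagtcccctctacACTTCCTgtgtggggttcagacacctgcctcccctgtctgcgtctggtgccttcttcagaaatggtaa
Cd79a, chr7:24897247-24897546, plus strand: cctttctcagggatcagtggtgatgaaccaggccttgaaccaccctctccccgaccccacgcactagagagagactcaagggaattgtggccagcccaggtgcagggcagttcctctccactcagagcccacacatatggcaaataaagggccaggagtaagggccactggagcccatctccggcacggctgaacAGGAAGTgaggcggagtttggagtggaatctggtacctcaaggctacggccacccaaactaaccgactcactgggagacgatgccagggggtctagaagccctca
Ptprc, chr1:138175256-138175555, minus strand: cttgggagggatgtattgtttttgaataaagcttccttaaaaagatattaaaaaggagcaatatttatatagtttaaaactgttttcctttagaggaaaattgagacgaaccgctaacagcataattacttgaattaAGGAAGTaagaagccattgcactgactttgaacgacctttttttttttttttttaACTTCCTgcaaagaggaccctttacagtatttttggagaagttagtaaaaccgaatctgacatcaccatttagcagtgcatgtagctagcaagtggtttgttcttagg
The letters AGGAAGT, on either strand, were in 14 of the 37 windows and in windows of 11 of the 24 genes (45.8%), namely Cd247, Cd37, Cd3d, Cd3e, Cd5, Cd53, Cd79a, Il7r, Lck, Ptprc and Satb1. They were in 9.35% of all 32851 windows and in windows of 10.4% of the 12911 genes of the count table that had one. The CCCNNGGG core of EBF sites was in windows of 6 of the 24 genes and of 20.7% of the table's genes, and in 13.7% of all windows. TGTGGTT, known from RUNX sites, was in windows of 2 of the 24 genes, Il7r and Lck, and of 4.76% of the table's genes, and in 5.27% of all windows. The octamer ATGCAAAT was in windows of 0 of the 24 genes and of 1.64% of the table's genes, and in 1.74% of all windows. Both strands were searched and each motif was counted on its own, whether or not it overlapped another. The windows shown all hold AGGAAGT or its reverse complement, unlike those of most of the 24 genes. The window shown for Ptprc overlaps its other window, and a match counted in both is the same letters. A match is a description of the letters only.

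Levels are in CPM, the count of a gene relative to the size of its library, after TMM scaling in edgeR. CPM are not corrected for transcript length, so levels are compared between samples within a gene. Total counts were 5240853 to 8588567 per sample, and 3 counts, taken as the floor of detection, corresponded to 0.338 to 0.516 CPM. Benign sample 1 had the smallest library. Skeletal muscle genes also set benign samples apart, with summed levels of 22634 to 56130 CPM in samples 3, 4 and 6, 258 CPM in sample 5 and 13.1 and 22.0 CPM in samples 1 and 2. Adipocyte genes summed to 2494 to 5168 CPM in benign tissue and to 2.80 to 25.9 CPM in tumors. Epithelial genes summed to 801 to 2094 CPM in benign tissue and to 2151 to 3933 CPM in tumors. The part of these tissue differences in the lymphocyte results was not tested. In bulk tissue, fewer cells of a type and less RNA per cell cannot be told apart.

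Benign sample 1 had the highest level of 12 samples for 35 of the 35 lymphocyte genes, whereas it was highest for 11.5% of the 16411 genes of the table. The summed level of the 35 genes was 4281 CPM in benign sample 1, 139 to 196 CPM in the other 5 benign samples and 140 to 252 CPM in tumors. Without benign sample 1 the summed levels of the 2 groups overlapped, but this sum leans on high genes such as Satb1, at 49.8 to 88.3 CPM in tumors. The B cell genes alone summed to 10.3 to 19.0 CPM in benign samples 2 to 6 and to 3.51 to 7.40 CPM in tumors, without overlap. Sums of the T cell genes (52.0 to 83.9 against 67.0 to 102 CPM) and of the shared genes (74.1 to 108 against 57.4 to 149 CPM) overlapped. Satb1 alone gave 12.9 to 43.8 CPM of the T cell sum in benign samples 2 to 6 and 49.8 to 88.3 CPM in tumors. Cd37 alone gave 8.07 to 14.2 CPM and 2.55 to 3.98 CPM of the B cell sum. Neither sum therefore stands for its other genes. T cell receptor signaling genes, for example, summed to 3.92 to 6.29 against 1.93 to 3.71 CPM, without overlap, and the B cell receptor chains overlapped. For 31 of the 35 genes, benign sample 1 was over 10 times the next highest sample, as it was for 1.11% of all genes. The 4 exceptions were Cd53, Tcf7, Ikzf1 and Satb1, at 8.90, 7.27, 1.90 and 1.47 times the next highest sample.

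**Figure D1:**
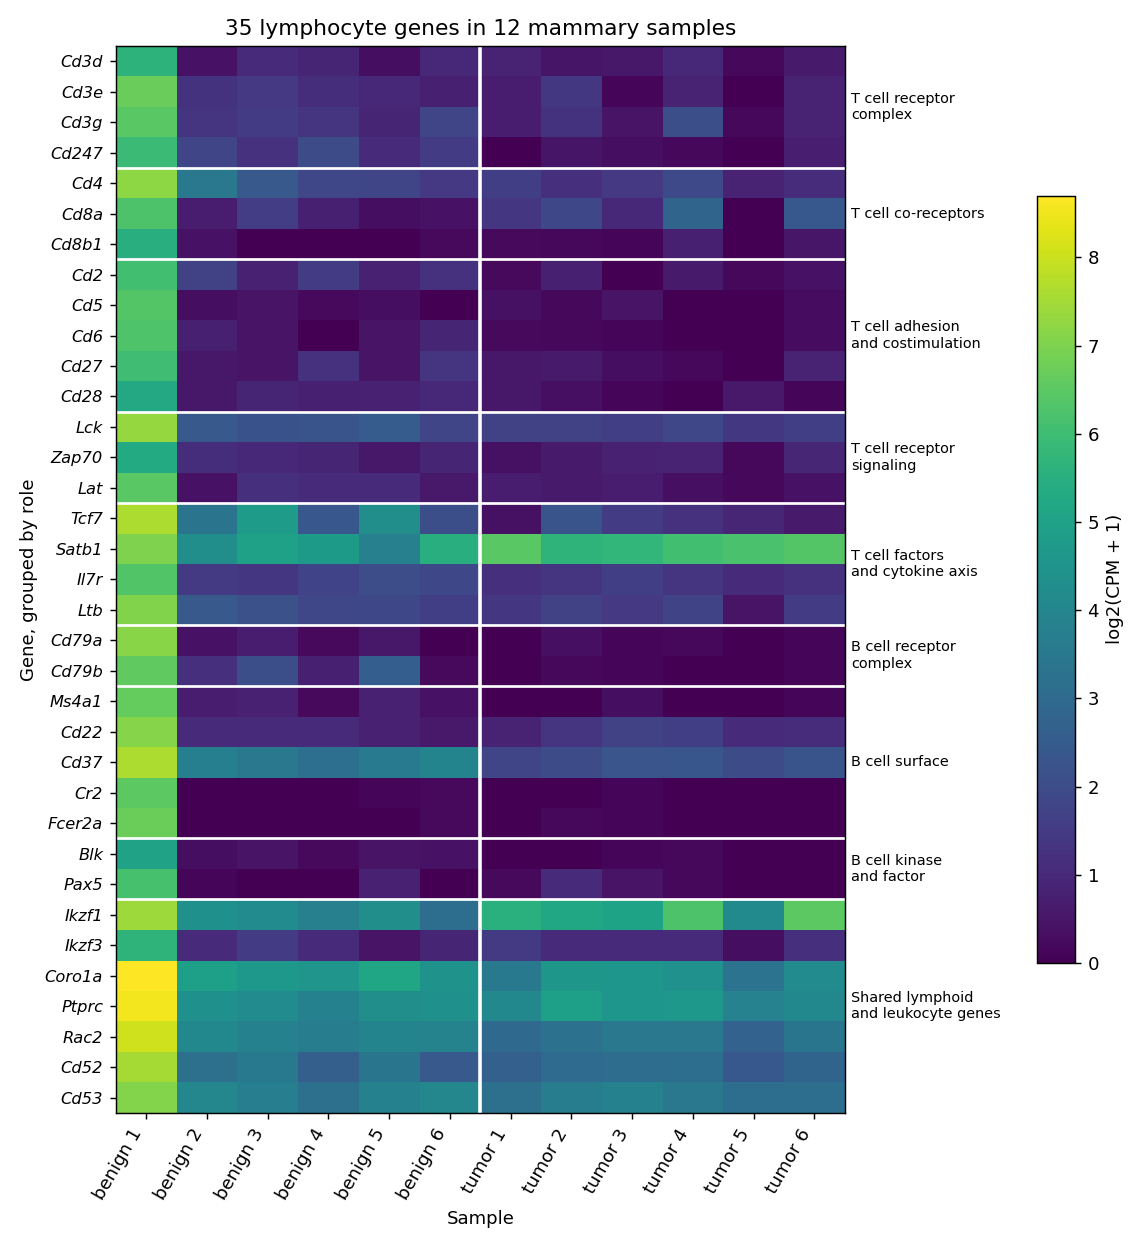
Level of the 35 lymphocyte genes (rows, grouped by role) in the 12 samples (columns) as log2(CPM + 1), from dark (0) to yellow (highest). The column of benign sample 1 is the brightest in all 35 rows, and Satb1 and Ikzf1 are the rows in which tumors come closest to it.

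The widest gaps between benign sample 1 and the rest were in B cell genes, but not in all of them. Cd37 and Cd79b were at only 14.0 and 18.5 times the next highest sample. Cr2 (complement receptor 2, of mature and follicular B cells and follicular dendritic cells) was at 90.9 CPM (529 counts) in benign sample 1 and at 0 or 1 counts in each of the other 11 samples, at least 177-fold higher than the floor. Fcer2a (CD23, of follicular B cells) was at 107 CPM in benign sample 1 and likewise at 0 or 1 counts elsewhere, at least 208-fold higher. Cd79a was at 141 CPM in benign sample 1, at 0 to 0.617 CPM in the other benign samples and at 0 to 0.280 CPM in tumors. Pax5, the factor that maintains B cell identity, was at 70.6 CPM against at most 0.726 and 1.12 CPM. Ms4a1 (CD20) was at 99.7 CPM against at most 0.740 and 0.243 CPM. Against the median of the other 5 benign samples, benign sample 1 was higher by 5.05 to 343 times over the T cell genes that had a median above 0, by 18.4 to 398 times over such B cell genes and by 9.85 to 47.7 times over the shared genes.

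Genes outside the 35 showed what else was high in benign sample 1. Of 20 other genes of T cell receptor signaling, it was the highest sample for 20, and of 17 other genes of B cell receptor signaling for 13. Ccr7, the homing receptor of naive and recirculating lymphocytes, was at 100.2 CPM in it and at most 1.30 CPM elsewhere. Of 10 measured genes of lymph node stroma and vessels it was highest for 8, with the T zone chemokine Ccl19 at 142 CPM and the follicle chemokine Cxcl13 at 109 CPM, each at most 1.71 CPM elsewhere. The macrophage genes did not follow, since benign sample 1 was highest for 2 of 14 and their sum was 1203 CPM against 664 to 1009 CPM in the other benign samples. It was highest for 0 of 5 epithelial, 0 of 4 adipocyte and 0 of 5 skeletal muscle genes, and its adipocyte sum of 2494 CPM stood beside 3058 to 5168 CPM in the other benign samples. Benign sample 1 thus held RNA of T cell, B cell and lymph node stroma genes beside adipocyte RNA. Whether that RNA came from an included lymph node was not tested.

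**Figure D2:**
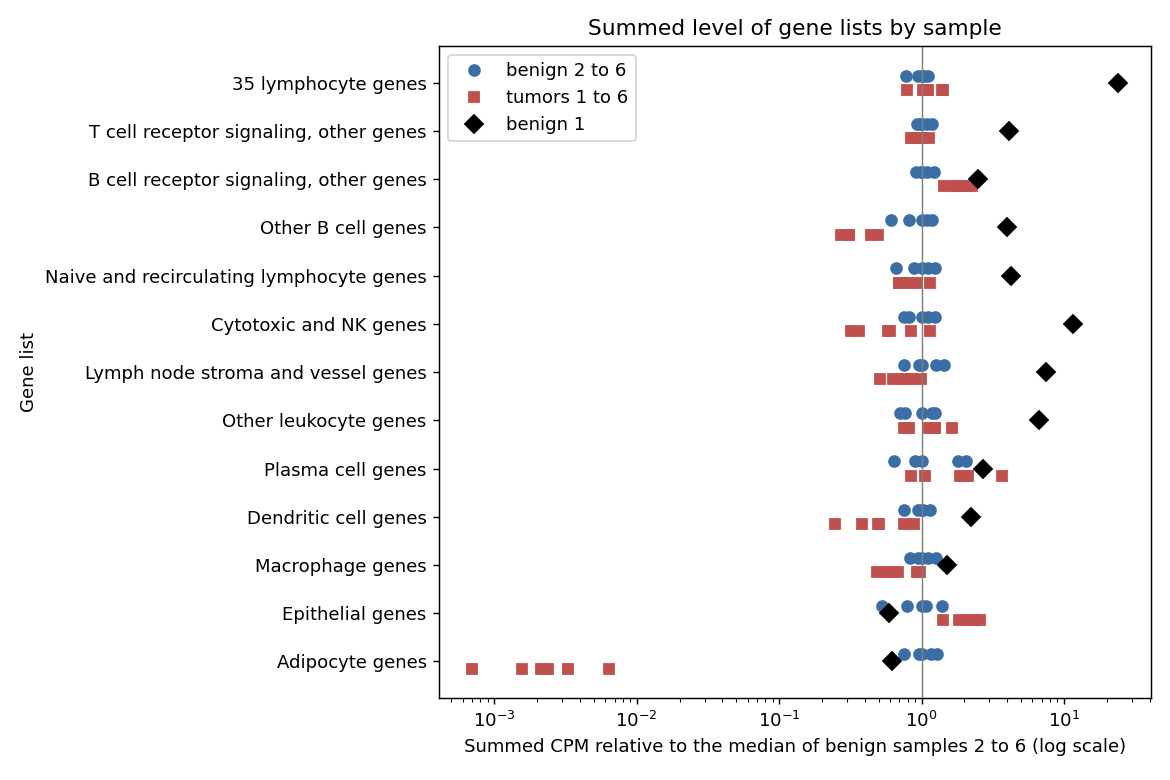
Summed CPM of gene lists (rows) in each sample, divided by the median of benign samples 2 to 6 (x axis, log scale). Benign sample 1 (black diamonds) lies at 24.0 for the 35 lymphocyte genes and 7.46 for genes of lymph node stroma and vessels, at 2.22 for dendritic cell genes and below 1 for epithelial and adipocyte genes.

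With all 12 samples, 15 of the 35 genes passed edgeR's expression filter and were tested among 13191 genes by its quasi-likelihood test, with a gene called at an adjusted p-value under 0.1. Of these 15, 12 were lower in tumors, where 34.8% of all tested genes were, and 0 were higher, where 28.2% of all were. The count of higher genes was also 0 at an unadjusted p-value under 0.05 and 0 by DESeq2, which called 26.6% of the genes it gave an adjusted p-value higher. The median log2 fold change of the 15 was -2.84, against -0.06 over all tested genes. The 20 genes that did not pass (Cd3d, Cd3e, Cd247, Cd8b1, Cd2, Cd5, Cd6, Cd27, Cd28, Zap70, Lat, Cd79a, Cd79b, Ms4a1, Cd22, Cr2, Fcer2a, Blk, Pax5 and Ikzf3) were well above the floor in benign sample 1 but had too few counts in the other samples. DESeq2 gave no adjusted p-value for 32 of the 35 genes in this comparison and called 1 of the other 3, Tcf7, lower, where 33.3% of all genes with an adjusted p-value were. The 32 were not only low genes, since they included Coro1a (66 to 2411 counts per sample) and Ptprc (77 to 2151).

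Without benign sample 1, 15 genes again passed the filter, among 13297. Of these, 8 were lower in tumors (Cd4, Lck, Tcf7, Il7r, Ltb, Cd37, Coro1a and Rac2), where 32.4% of all tested genes were, and 2 were higher (Satb1 and Ikzf1), where 31.5% of all were. The median log2 fold change of the 15 was -0.61, against 0.01 over all tested genes. The calls of Cd3g, Ptprc, Cd52 and Cd53 were lost. DESeq2 gave adjusted p-values for 33 of the 35 genes in this comparison and called 16 lower and 3 higher, where 34.4% and 28.0% of all genes were. edgeR without a filter beyond 1 count over all samples tested all 35 and called 14 lower and 2 higher, where 32.3% and 28.2% of all genes were. The 14 were Cd247, Cd2, Cd6, Cd28, Cd79b, Ms4a1, Blk and the 8 above other than Ltb. With that filter the log2 fold change was -2.87 for Cd247 (adjusted p = 0.0034 by edgeR) and -2.10 for Cd2 (adjusted p = 0.015). The count of lower genes thus depended on which low genes were tested.

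**Figure D3:**
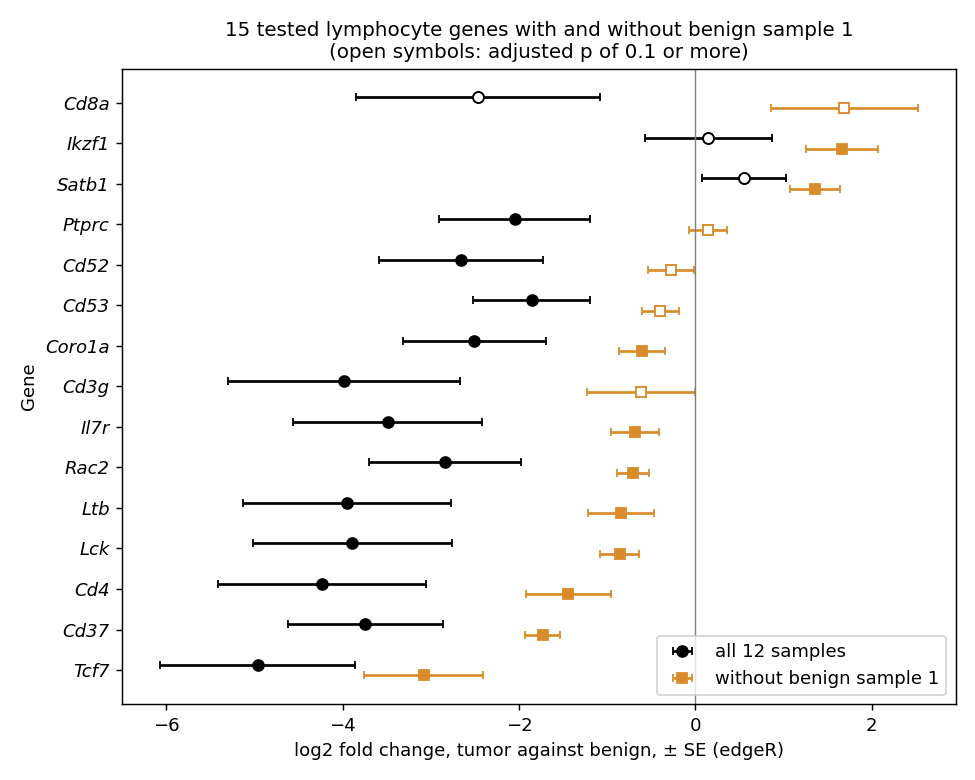
Log2 fold change of tumors against benign tissue (x axis, edgeR, bars ± standard error) of the 15 tested lymphocyte genes, with all 12 samples (black circles) and without benign sample 1 (orange squares). Filled symbols passed an adjusted p-value of 0.1; all 15 estimates lie further right without benign sample 1, and Cd8a and Ptprc change sign.

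The ranges of single samples can be set side by side for all 35 genes, tested or not. With all 12 samples, every tumor was below every benign sample for 6 of the 35 genes (17.7% of all 16411 genes) and above for 0 (14.8% of all). Without benign sample 1, every tumor was below for the same 6, Cd247, Cd2, Cd79b, Cd37, Blk and Rac2 (19.4% of all genes), and above for 1, Satb1 (17.0% of all). For Blk and Cd79b the lowest benign sample had 1 count, as some tumors did, so only library size sets them apart there. By exact two-sided permutation of CPM over all regroupings of 5 benign samples against 6 tumors, 15 of the 35 genes were lower at a p-value under 0.05, where 29.6% of all genes were, and 2 were higher, where 26.9% of all were. The smallest p-value this permutation can give is 0.00433, and the p-values over the 35 genes are not adjusted.

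Among the genes of the T cell receptor complex, Cd247 (the zeta chain) was lower in tumors without benign sample 1, and the ranges of the CD3 chains overlapped. In benign samples 2 to 6, Cd247 was at 2.49, 1.36, 3.09, 1.09 and 1.88 CPM, and in tumors at 0 to 0.675 CPM (median 0.190). Every tumor was below every benign sample, and the tumor mean was 0.124 of that of benign samples 2 to 6 (exact permutation p = 0.00433). Cd3e was at 0.682 to 1.73 CPM in benign samples 2 to 6 and at 0 to 1.68 CPM in tumors, and the ranges overlapped (exact permutation p = 0.134). Cd3d (0.242 to 1.11 CPM against 0.129 to 0.961 CPM, exact permutation p = 0.463) overlapped as well. Cd3g was at 0.847 to 2.56 CPM in benign samples 2 to 6 and at 0.129 to 3.30 CPM in tumors. For Cd3g, the log2 fold change was -3.98 with all 12 samples (standard error 1.31, adjusted p = 0.020 by edgeR) and -0.61 without benign sample 1 (standard error 0.61, adjusted p = 0.416). Tumor 4 alone lay above the other benign samples, and without it Cd3g was called lower at -1.33. In these 11 samples the CD3 chains had 0 to 24 counts per sample.

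Without benign sample 1, Cd4 was lower in tumors and Cd8a was not called, with an estimate of the opposite sign. The difference between the 2 genes was not tested. Cd4, the co-receptor of helper and regulatory T cells that macrophages and dendritic cells can also carry, was at 147 CPM in benign sample 1 and at 10.1, 4.44, 2.57, 2.54 and 1.71 CPM in samples 2 to 6. In tumors it was at 0.772 to 2.75 CPM (median 1.48). Benign sample 2 was the highest of these 11, and 4 of the 6 tumors were below all benign samples. The log2 fold change was -4.24 with all samples (adjusted p = 0.00795 by edgeR) and -1.44 without benign sample 1 (standard error 0.48, adjusted p = 0.022). With benign sample 2 left out as well, the estimate was -0.84 (adjusted p = 0.091 by edgeR). Cd8a, of cytotoxic T cells, was at 75.5 CPM in benign sample 1, at 0.592, 1.97, 0.686, 0.242 and 0.341 CPM in samples 2 to 6 and at 0 to 6.04 CPM in tumors (median 2.13). Tumors 2, 4 and 6 were above benign samples 2 to 6, and tumor 5 had 0 counts. For Cd8a, the log2 fold change turned from -2.46 with all samples (standard error 1.38, adjusted p = 0.148 by edgeR) to 1.69 without benign sample 1 (standard error 0.83, adjusted p = 0.102), and neither was called. It was called higher by DESeq2 (adjusted p = 0.086) and with total counts only (adjusted p = 0.089). It was also called by edgeR when benign sample 3 (log2 fold change 2.45), tumor 3 (1.85) or tumor 5 (1.94) was left out in addition. Cd8b1, its partner chain, was at 43.5 CPM in benign sample 1, at 0 to 3 counts in the other benign samples and at 0 to 5 counts in tumors.

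Tumors 4 and 6 had the highest levels of tumors for Cd8a (6.04 and 4.28 CPM), Cd8b1 (0.687 and 0.450 CPM), Ikzf1 (75.8 and 89.6 CPM) and Gzmb, the granule protease of cytotoxic cells (14.0 and 7.88 CPM). Tumor 5 was the lowest tumor for the same 4 genes, at 0, 0, 17.1 and 1.54 CPM. These 4 genes were set side by side after their values were seen, as were the next 4, from the cytotoxic and NK list. Nkg7 was also highest in tumors 4 and 6 (2.47 and 1.01 CPM), but Gzma, Prf1 and Ccl5 did not follow. Gzma was at 1.10 CPM in tumor 4 and 0.113 CPM in tumor 6, and Prf1 was at 0 in both. Ccl5 was highest in tumor 5, at 15.8 CPM against at most 3.57 CPM in the other tumors. Tumor 5 was the lowest tumor, or tied at 0, for 29 of the 35 genes, and 21 of the 35 had any count in it, against 28 to 34 in the other tumors. Its total of 7423305 counts was within the range of the other tumors. Its epithelial sum of 3933 CPM was the highest of the 12 samples, through Krt18 (1535 CPM) and Krt8 (974 CPM). The other epithelial genes, Epcam (1111 CPM), Cdh1 (307 CPM) and Krt19 (5.79 CPM), were lower in it than in all tumors except tumor 1.

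Of the 5 costimulatory and adhesion receptors of T cells, Cd2, Cd6 and Cd28 were lower in tumors without benign sample 1 by exact permutation, at unadjusted p-values under 0.05. Cd2 (an adhesion receptor) was at 2.25, 0.740, 1.89, 0.726 and 1.36 CPM in benign samples 2 to 6 and at 0 to 0.701 CPM in tumors (median 0.249), with no overlap (exact permutation p = 0.00433). Cd28, which gives the second signal for activation, was at 0.473 to 1.02 CPM in benign samples 2 to 6 and at 0 to 0.515 CPM in tumors (exact permutation p = 0.013); 4 of the 6 tumors were below all of them. Cd6 was at 0 to 0.853 CPM against 0 to 0.225 CPM (exact permutation p = 0.043), and since every tumor had at most 2 counts its mean in benign samples 2 to 6 was at least 1.15-fold higher than the tumors' floor. Cd27 (0.363 to 1.53 CPM against 0 to 0.788 CPM, exact permutation p = 0.152) overlapped. Cd5 had at most 3 counts in each of the 11 samples and allows no fold.

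Lck, the kinase that starts T cell receptor signaling, was at 157 CPM in benign sample 1, at 4.38, 3.58, 3.78, 4.72 and 2.56 CPM in benign samples 2 to 6 and at 1.67 to 2.61 CPM in tumors (median 2.15). Tumor 4 overlapped benign sample 6, and the other 5 tumors were below all benign samples. The log2 fold change was -3.89 with all samples (standard error 1.13) and -0.85 without benign sample 1 (standard error 0.22, adjusted p = 0.00579 by edgeR). Zap70, the next kinase (0.484 to 1.18 CPM against 0.129 to 0.900 CPM, exact permutation p = 0.113), and the adaptor Lat (0.355 to 1.23 CPM against 0.129 to 0.638 CPM, exact permutation p = 0.065) overlapped. Of the 14 tested genes of T cell receptor signaling outside the 35, 6 were lower and 0 higher with all samples, and 4 were lower and 2 higher without benign sample 1. The shares of all tested genes were 34.8% and 28.2% with all samples and 32.4% and 31.5% without benign sample 1. Prkcq (protein kinase C theta, also made by skeletal muscle) had log2 fold changes of -5.62 and -5.19 in these comparisons. Ptprcap (a CD45-associated protein) had -4.02 and -1.29, and the adaptor Grap2 had -4.36 with all samples but was not called without benign sample 1 (log2 fold change -1.01).

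Tcf7 (TCF-1, a factor of naive and memory T cells) kept the largest difference of the 15 tested genes. It was at 196 CPM in benign sample 1, at 9.11, 27.0, 4.12, 18.6 and 3.24 CPM in benign samples 2 to 6 and at 0.319 to 3.79 CPM in tumors (median 1.14). Tumor 2 overlapped benign sample 6, and the other 5 tumors were below all benign samples. The log2 fold change was -4.97 with all samples (standard error 1.10, adjusted p = 0.00193 by edgeR) and -3.08 without benign sample 1 (standard error 0.67, adjusted p = 0.00192). Tcf7 did not keep step with Cd3e, which was at 103 CPM in benign sample 1 and at 1.73 and 0.967 CPM in samples 3 and 5. Which cells made the Tcf7 RNA was not tested. Il7r, the receptor for the survival cytokine interleukin-7, was at 1.78, 1.60, 2.40, 3.14 and 2.73 CPM in benign samples 2 to 6 and at 1.03 to 2.06 CPM in tumors. Its log2 fold change was -3.49 with all samples and -0.69 without benign sample 1 (adjusted p = 0.049 by edgeR), and without benign sample 5 as well it was not called. Ltb, lymphotoxin beta, which organizes lymphoid tissue, was at 2.05 to 4.38 CPM against 0.386 to 2.47 CPM. Estimates of its log2 fold change were -3.95 and, without benign sample 1, -0.84 (adjusted p = 0.074 by edgeR). That call was lost when benign sample 2 or 3 or tumor 1 or 3 was left out as well.

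Satb1, a chromatin organizer of developing T cells that epithelial cells can also make, went the other way. It was at 130 CPM in benign sample 1, at 18.7, 30.8, 25.7, 12.9 and 43.8 CPM in benign samples 2 to 6 and at 49.8 to 88.3 CPM in tumors (median 69.6). Every tumor was above benign samples 2 to 6 and below benign sample 1. The log2 fold change was 0.55 with all samples (standard error 0.48, adjusted p = 0.344 by edgeR) and 1.35 without benign sample 1 (standard error 0.29, adjusted p = 0.00156; exact permutation p = 0.00433). Of 5 epithelial genes, 4 were higher in tumors too and 1, Krt19, was lower (log2 fold change -4.74 with all samples and -4.82 without benign sample 1). Of all tested genes, 28.2% were higher with all samples and 31.5% without benign sample 1. The part of the epithelial genes in the level of Satb1 was not tested.

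Of the B cell receptor chains, Cd79b was at 1.30, 3.21, 0.686, 5.08 and 0.171 CPM in benign samples 2 to 6 and at 0 to 0.140 CPM in tumors. Each tumor had at most 1 count, and benign sample 6 had 1 count. The mean of benign samples 2 to 6 was at least 5.23-fold higher than the tumors' floor, and the ranges did not overlap (exact permutation p = 0.00433). Cd79a had at most 5 counts in benign samples 2 to 6 and at most 2 in tumors, and the groups overlapped (exact permutation p = 0.091). Ms4a1 was at 0.172 to 0.740 CPM in benign samples 2 to 6 (at most 6 counts) and at 0 counts in 4 of the 6 tumors, at least 1.29-fold higher than the tumors' floor (exact permutation p = 0.00866). Blk, a B cell kinase, had 1 to 3 counts in each of benign samples 2 to 6 and 0 or 1 counts in tumors, and allows no fold.

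Without benign sample 1, the means of Cd22, Pax5 and Fcer2a were not lower in tumors. Cd22, an inhibitory receptor of B cells, was at 0.512 to 1.11 CPM in benign samples 2 to 6 and at 0.797 to 2.31 CPM in tumors (median 1.33), and 4 of the 6 tumors were above all 5 benign samples (exact permutation p = 0.069). Pax5 had 8 counts in tumor 2, 6 counts in benign sample 5 and at most 3 in the other 9 of these samples. Cd37, a tetraspanin of B cells and other leukocytes, was at 199 CPM in benign sample 1, at 12.5, 10.2, 8.07, 10.8 and 14.2 CPM in samples 2 to 6 and at 2.55 to 3.98 CPM in tumors (median 3.46). The groups did not overlap, and the log2 fold change was -3.74 with all samples (standard error 0.88) and -1.73 without benign sample 1 (standard error 0.20, adjusted p = 1.89e-05 by edgeR).

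Among 15 tested genes of B cell receptor signaling outside the 35, 6 were lower and 2 higher with all samples, and 4 were lower and 6 higher without benign sample 1. For this list and the next, the shares of all tested genes were 34.8% lower and 28.2% higher with all samples. Without benign sample 1 they were 32.4% and 31.5%. The kinase Syk was called lower in both (log2 fold change -1.10 without benign sample 1), as was the adaptor Bank1 (-3.44 and -1.28). Plcg2, the phospholipase of the B cell receptor that other cells also use, was at 12.5 to 21.1 CPM in benign samples 2 to 6 and at 78.1 to 102 CPM in tumors, a log2 fold change of 1.93 with all samples and 2.41 without benign sample 1. Of 10 other tested B cell genes, 4 were lower with all samples, and 1 was lower and 2 higher without benign sample 1. The lower gene was Ebf1, a B lineage factor that adipose and stromal cells also make, at 143 CPM in benign sample 1, 90.2 to 178 CPM in the other benign samples and 3.65 to 6.19 CPM in tumors. A log2 fold change of -4.89 became -4.83 without benign sample 1, so benign sample 1 did not stand apart for it.

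Cd79b and Tcf7 ranked the other benign samples in a similar way. Samples 3 and 5 were the highest for both, sample 2 came next, and samples 4 and 6 were lowest. Cd79a followed with 5, 4, 3, 1 and 0 counts in samples 3, 5, 2, 4 and 6. Glycam1, a mucin of lymph node venules that mammary epithelium also makes, was at 502 CPM in benign sample 1, at 40.1, 24.5 and 10.3 CPM in samples 3, 5 and 2 and at 0 in samples 4 and 6 and in all 6 tumors. The chemokines Ccl19 and Cxcl13 did not follow this order, at 0.363 to 1.71 CPM and 0.726 to 1.54 CPM in benign samples 2 to 6. Nor did several T cell genes. Cd247 was highest in sample 4 (3.09 CPM) and lowest in sample 5 (1.09 CPM). Cd2 and Cd4 were highest in sample 2 (2.25 and 10.1 CPM), against 0.726 and 2.54 CPM in sample 5. Madcam1, from the list of lymph node vessel genes, was at 3.79 CPM in sample 2, 3.08 CPM in sample 3 and 0.363 CPM in sample 5. These genes were set side by side after their values were seen.

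**Figure D4:**
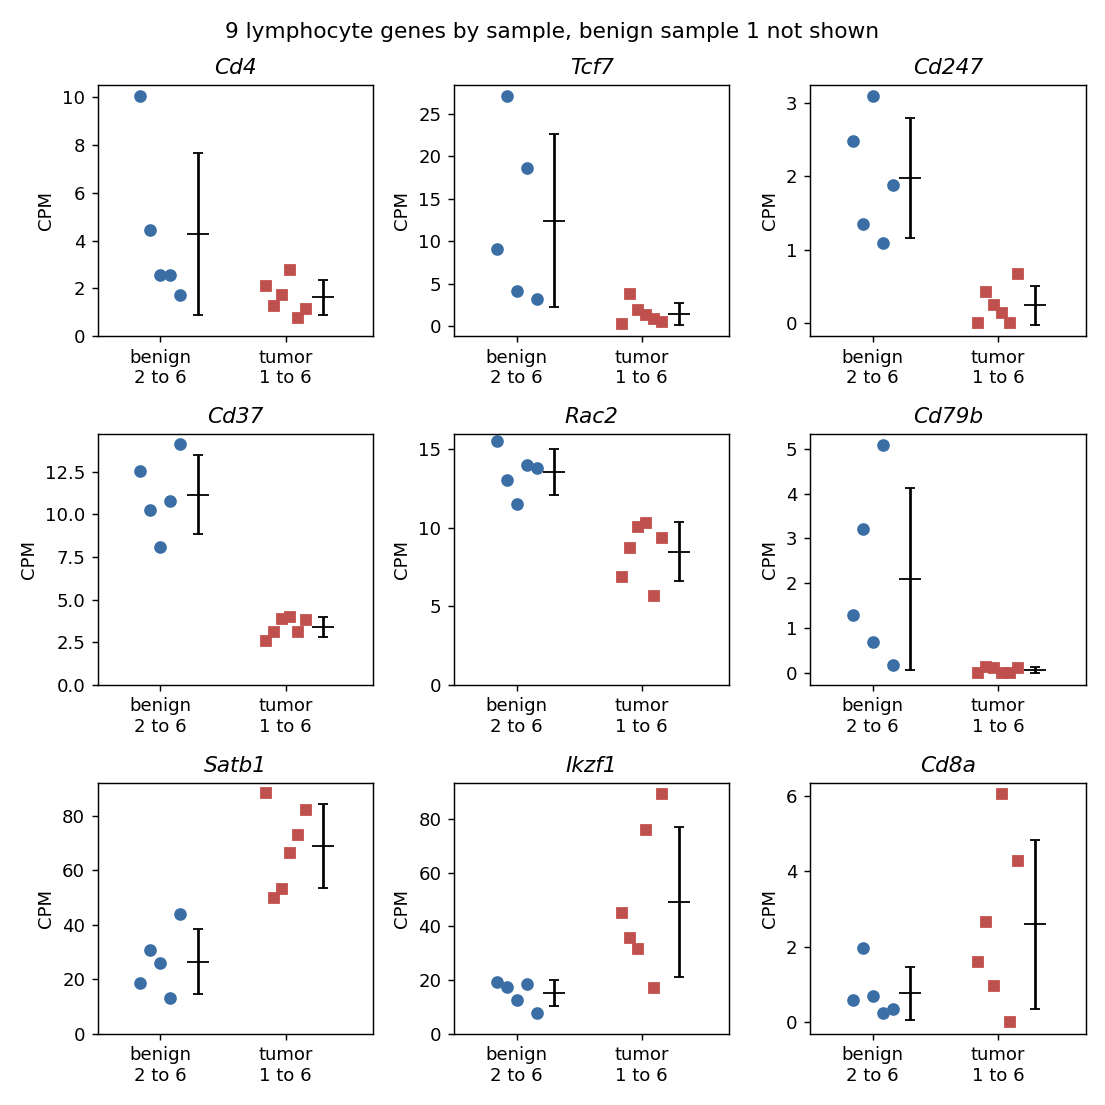
CPM (y axes, scaled to each gene) of 9 lymphocyte genes in benign samples 2 to 6 (blue circles) and tumors 1 to 6 (red squares), with means ± SD in black, and without benign sample 1. Cd247, Cd37, Rac2 and Cd79b do not overlap with tumors lower, Satb1 does not overlap with tumors higher, and Cd8a is spread from 0 to 6.04 CPM in tumors.

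The genes shared with other leukocytes were above the floor in all 12 samples, except Ikzf3. Rac2, a GTPase of blood cells, was at 270 CPM in benign sample 1, at 15.5, 13.1, 11.5, 14.0 and 13.8 CPM in samples 2 to 6 and at 5.66 to 10.3 CPM in tumors (median 9.02), without overlap. Its log2 fold change was -2.84 with all samples and -0.70 without benign sample 1 (standard error 0.18, adjusted p = 0.00577 by edgeR). Coro1a, an actin regulator, was at 414 CPM in benign sample 1, at 20.5 to 33.3 CPM in samples 2 to 6 and at 8.88 to 23.6 CPM in tumors. Its log2 fold change was -2.51 and, without benign sample 1, -0.60 (adjusted p = 0.065 by edgeR), a call lost when benign sample 2 or 5 or tumor 1 was left out as well or when total counts alone were used for scaling (adjusted p = 0.113).

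Ptprc, present on all leukocytes, was at 370 CPM in benign sample 1, at 19.6, 17.5, 13.2, 18.5 and 19.8 CPM in samples 2 to 6 and at 13.4 to 29.0 CPM in tumors (median 19.1). The 2 groups overlapped and 3 tumors were above all of benign samples 2 to 6. Its log2 fold change was -2.05 with all samples (standard error 0.85, adjusted p = 0.056 by edgeR) and 0.15 without benign sample 1 (standard error 0.21, adjusted p = 0.581). The call with all samples was also lost without tumor 1, 5 or 6. Cd52 (-2.66 with all samples, and -0.27 with an adjusted p of 0.394 by edgeR without benign sample 1) and Cd53 (-1.86, and -0.40 with an adjusted p of 0.124) lost their calls too. Cd53 was still called lower without benign sample 1 by DESeq2 (adjusted p = 0.095), with upper-quartile scaling (0.091), and by edgeR when benign sample 4 (0.029) or tumor 3 (0.069) was left out in addition.

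Ikzf1 (Ikaros, a factor of the lymphoid lineages) was at 170 CPM in benign sample 1, at 19.4, 17.3, 12.7, 18.6 and 7.85 CPM in samples 2 to 6 and at 17.1 to 89.6 CPM in tumors (median 40.3). Tumors 1, 2, 3, 4 and 6 were above all of benign samples 2 to 6, and tumor 5 lay within them. The log2 fold change was 0.15 with all samples (standard error 0.72, adjusted p = 0.873 by edgeR) and 1.66 without benign sample 1 (standard error 0.40, adjusted p = 0.00386; exact permutation p = 0.017). Ikzf3 (Aiolos, its relative in lymphocytes) was at 0.363 to 1.85 CPM in benign samples 2 to 6 and at 0.257 to 1.75 CPM in tumors, and overlapped (exact permutation p = 0.766). Tumor 5 had the lowest Ikzf1 of the tumors. It also had the highest Krt8 and Krt18 of the tumors and, after tumor 1, the lowest Epcam and Cdh1.

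Counts of calls in other lists of leukocyte genes stand beside the shares of all tested genes given above, 34.8% lower and 28.2% higher with all samples and 32.4% and 31.5% without benign sample 1. Of 16 other leukocyte genes tested, 11 were lower and 0 higher with all samples, and 5 were lower and 1 higher without benign sample 1, among them Arhgap45 (log2 fold changes of -3.13 and -0.94). Of 14 macrophage genes, 9 were lower and 2 higher with all samples, and 8 and 2 without benign sample 1. Cd163, a scavenger receptor, had log2 fold changes of -2.64 and -2.63, Mrc1 (CD206) had -2.28 in both, Cd68 had -0.79 and -0.69, and Adgre1 (F4/80) was not called (-0.20 and -0.16). The 2 higher genes were the Fc receptor Fcgr1 (1.28 in both) and Trem2 (1.26 and 1.25), the latter named after its values were seen. Csf1r had -0.52, a call at the edge of the threshold, and -0.35 without a call. Of the cytotoxic and NK genes, 3 of 14 measured were tested with all samples (2 lower, 1 higher) and 4 without benign sample 1 (2 lower, 1 higher). Nkg7 had log2 fold changes of -2.28 and, without benign sample 1, -1.15, whereas Gzmb had a log2 fold change of 1.28 and 1.36. Klrd1, tested only without benign sample 1, was lower at -2.34. Without that sample, every tumor was below every benign sample for Ncr1, Klrd1, Klrb1c, Gzma and Prf1, as for 19.4% of all genes. Ncr1, for example, was at 0.967 to 2.60 CPM against 0.113 to 0.561 CPM. Klrk1, Eomes, Nkg7 and Gzmb overlapped, among others. All these genes were low, and they were set side by side after their values were seen. Without tumor 4, Gzmb was not called in either comparison, and without benign sample 1 leaving out benign sample 4 or 6 also ended its call. Of 13 regulatory and checkpoint genes, 5 were tested, with 2 lower and 1 higher, and 2 lower and 3 higher without benign sample 1. Il2ra (CD25) had -4.39 and -3.81.

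Genes of naive and recirculating lymphocytes were mostly too low to test. With all samples 5 of 10 were tested, with 2 lower and 1 higher, and without benign sample 1 there were 6, with 3 lower and 3 higher. S1pr1, the receptor for exit from lymphoid organs that endothelium also makes, had log2 fold changes of -3.65 and -3.39, and Klf2, which activates it, had -3.19 and -2.99. Plasma cell genes (3 of 6 measured tested) had 1 lower and 1 higher with all samples and 1 lower and 2 higher without benign sample 1. Of 5 tested dendritic cell genes 3 were lower in both comparisons, and of 3 tested genes of lymph node stroma and vessels 2 were lower, and 1 without benign sample 1. Of 2 tested neutrophil genes 1 was lower in both.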

How the data were processed

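The 6 tumors and 6 benign samples were grouped by their labels. The authors enriched poly A RNA, made directional libraries, and deposited, for each gene and sample, an estimated count rounded to a whole number, not scaled for depth. The submitters' notes name Trim Galore, Salmon, DESeq2 and mm10, and the versions and the annotation are not given in the sources used here. Every listed gene had at least 5 counts in all, which could hide lower genes. No sample column was left unused (0 columns).

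From the deposited counts, genes were filtered by edgeR's filterByExpr (minimum count 10, minimum total 15), scaled by TMM and compared in R 4.3.3 with edgeR 4.0.16 (quasi-likelihood, both sides). P-values were adjusted over all tested genes after Benjamini and Hochberg and read at the study's threshold of 0.1, with all 12 samples (13191 genes) and without benign sample 1 (13297 genes). DESeq2 1.42.0 was an alternative. The scripts were tested on simulated counts. Mean CPM of single genes were compared by exact permutation in Python 3.11.15. The study took tumors and benign samples from different mice but does not say that each tumor came from a mouse of its own, so p-values measure the spread between these samples only. All pairs of replicates differed by more than sampling noise. Total counts were 5240853 to 8588567, and the floor of 3 counts covers counting error only. The lymphocyte genes and the other lists were chosen with earlier results of these data known. All 35 genes are named, and from other lists the defining genes and up to 4 tested genes of at least 1 CPM with the largest fold change; others are said to be chosen after their values were seen. Of 176 genes on the other lists, 162 were measured, and the rest, among them immunoglobulin genes, were not analysed here. Alternatives were DESeq2, upper-quartile and total-count scaling, filters of 1 count over all samples or 10 in each, adjusted p under 0.05, a block for the replicate number, and leaving out each sample. Some genes of the lists are not reported here.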

Additional observations from a re-analysis of the deposited data

Results flagged for a closer look

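A sample was marked where its gap to the nearest sample of its group, on the log2 CPM scale, was over 0.625 of the range of the 6 samples (Dixon's test). Chance alone marks about 1 in 20 independent groups. That rate is no yardstick for the number of lymphocyte genes marked. Benign sample 1 was singled out beforehand, the genes were chosen with earlier results known, and they are measured in the same samples. Benign sample 1 was marked as the highest benign sample for 31 of the 35 lymphocyte genes, with these shares of the range: Cd3d 0.783, Cd3e 0.842, Cd3g 0.788, Cd247 0.761, Cd8a 0.705, Cd8b1 0.836, Cd2 0.779, Cd5 0.85, Cd6 0.749, Cd27 0.774, Cd28 0.859, Lck 0.859, Zap70 0.834, Lat 0.823, Il7r 0.841, Ltb 0.828, Cd79a 0.811, Ms4a1 0.848, Cd22 0.89, Cd37 0.827, Cr2 0.916, Fcer2a 0.919, Blk 0.913, Pax5 0.767, Ikzf1 0.709, Ikzf3 0.723, Coro1a 0.84, Ptprc 0.88, Rac2 0.906, Cd52 0.775 and Cd53 0.784. The 4 genes not marked in benign tissue were Cd4, Tcf7, Satb1 and Cd79b, for which benign sample 1 was also the highest sample. In tumors, tumor 5 was marked as the lowest for Ltb (0.730, at 3 counts) and for Ikzf3 (0.705, at 2 counts), and tumor 3 as the highest for Cr2 (1), which had 1 count there and 0 in the other tumors.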

How the results depend on the processing

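With all 12 samples, the number of lymphocyte genes lower in tumors was 12. It was 1 with DESeq2, which gave no adjusted p-value for 32 of the 35, 32 when 1 count over all samples sufficed, so that all 35 were tested, and 7 when each sample needed 10 counts, so that 9 were tested. Of all genes tested, 33.3%, 33.4% and 28.9% were lower in these fits. Leaving out 1 sample gave 8 to 12 lower and 0 to 2 higher, and 8 and 2 came without benign sample 1. Without benign sample 1, the 8 lower genes became 16 with DESeq2, 14 with the filter of 1 count and 4 with that of 10, where 34.4%, 32.3% and 28.7% of all genes were lower. Leaving out another sample gave 6 to 9 lower and 2 to 3 higher. The samples share replicate numbers only by name, since deviations of same-numbered samples correlated by -0.13 to 0.11. With the replicate number as a block, 3 genes were lower and 1 higher with all samples, and 5 lower and 2 higher without benign sample 1, of 15 tested in each. Under the block 32.1% of all genes were lower and 26.3% higher, and 30.01% and 28.5% without benign sample 1. Under the block Cd8a turned from -2.46 to 0.36. Leaving out 1 sample at a time gave log2 fold changes of -2.83 to 1.69 for Cd8a, -0.066 to 1.66 for Ikzf1 and -2.27 to 0.15 for Ptprc, in each with the highest value without benign sample 1. The causes were not tested. Scaling by total counts moved 5 of 70 exact permutation p-values of mean CPM past 0.05 and reversed no difference. The CD3 chains had under 25 counts in each sample other than benign sample 1.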
